A study of Mus musculus with 9 samples.

Results

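The miR-29 family was followed in the quadriceps of mice lacking Mbnl1 or Mbnl2. Its members were every arm of the family that the deposited table of raw counts lists, taken by name and whatever their values. These were 7 of 1966 named mature miRNAs: the 3p arms mmu-miR-29a-3p, mmu-miR-29b-3p and mmu-miR-29c-3p, and the 5p arms mmu-miR-29a-5p, mmu-miR-29b-1-5p, mmu-miR-29b-2-5p and mmu-miR-29c-5p. The species prefix is left out below. All 7 had counts in all 9 libraries.

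Small RNA from 9 quadriceps samples was sequenced, with 3 libraries in each of 3 groups and an age of 90 days in all of them. WT mice were C57BL/6J with Mbnl1+/+ and Mbnl2+/+. Mbnl1KO mice were C57BL/6J with Mbnl1 ΔE3/ΔE3 and Mbnl2+/+. Mbnl2KO mice were Mbnl1+/+ on the background B6.C-Tg(CMV-cre)1Cgn/J, a line in which the CMV promoter drives Cre throughout the body, and their labels give Mbnl2 ΔE2/ΔE2, ΔE2/ΔE3 and ΔE2/ΔE4 for replicates 1, 2 and 3, where the study's text gives ΔE2/ΔE2. By the labels neither WT nor Mbnl1KO mice carried that background, although the study's text calls the WT mice littermates. Loss of Mbnl2 and the background can therefore not be told apart. MBNL1 and MBNL2 bind RNA and steer its splicing, and the study asked which miRNAs of skeletal muscle depend on them. The table holds no mRNA, so the loss of either protein could not be checked in these libraries. The labels do not say that each library came from a separate animal, and p-values measure the spread between these libraries.

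A miRNA hairpin is cut by Dicer into a duplex of a 5p and a 3p arm, of which usually one, the guide strand, is loaded into Argonaute while the other, the passenger strand, is mostly degraded. In the miR-29 family the 3p arms are the guides. They are known for pairing with the mRNAs of collagens, elastin and other matrix proteins and are therefore described as antifibrotic, and in muscle they are also linked to myogenic differentiation and to wasting. The family is made from 4 hairpins in a pair of clusters.

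The guides are shown first because their shared seed (bases 2 to 8, in capitals) defines the family and because the counting had to separate them. Sequences are from RefSeq (table of build GRCm38.p6), in which all 7 members were matched by name.
miR-29a-3p: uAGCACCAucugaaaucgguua
miR-29b-3p: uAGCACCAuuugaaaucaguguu
miR-29c-3p: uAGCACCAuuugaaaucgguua

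Only these 3 of 1679 mature mouse miRNAs in RefSeq have the seed AGCACCA. Counted from 1 at the 5′ end, miR-29c-3p differs from miR-29a-3p by the single substitution C10U. miR-29b-3p differs from miR-29a-3p by C10U, G18A, U21G and A22U, and its first 17 bases are identical to those of miR-29c-3p. A read that ends early could therefore not be told apart between miR-29b-3p and miR-29c-3p.

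The passenger strands are shown because the ratios called below are taken between them and a guide. Their seeds differ from that of the guides and from each other.
miR-29a-5p: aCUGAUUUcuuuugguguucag
miR-29b-1-5p: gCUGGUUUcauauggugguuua
miR-29b-2-5p: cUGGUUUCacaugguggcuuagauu
miR-29c-5p: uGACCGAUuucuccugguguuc

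miR-29b-1-5p and miR-29b-2-5p start 1 base apart on otherwise matching sequence, so that bases 2 to 8 form different words. Over the 21 bases that can be laid side by side they differ by U11C and U19C, with positions counted on miR-29b-1-5p. This allows the 5p arms of the pair of miR-29b hairpins to be counted apart, while their 3p arms are one and the same sequence and share 1 entry in the table.

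On GRCm39 with the GENCODE annotation, the hairpin Mir29a lies at chr6:31039595-31039682 and Mir29b-1 at chr6:31039958-31040028, both on the minus strand, 275 bases apart and in an intron of the lncRNA Gm67885. Mir29b-2 lies at chr1:194719348-194719428 and Mir29c at chr1:194719855-194719942, both on the plus strand and 426 bases apart. This second cluster lies in an exon of the lncRNA A330023F24Rik and overlaps an exon of Cd46, a protein-coding gene on the opposite strand. The genomic sequence of each of the 4 hairpins was identical to that in RefSeq. The hairpins of both miR-29b loci are given below with the arms in capitals, 5p first, because the arm ratio that changed is taken between them.
Mir29b-1: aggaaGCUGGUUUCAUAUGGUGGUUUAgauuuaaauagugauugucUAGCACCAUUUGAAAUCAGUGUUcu
Mir29b-2: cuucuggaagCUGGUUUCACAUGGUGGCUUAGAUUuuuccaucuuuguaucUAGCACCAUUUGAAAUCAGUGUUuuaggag

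Total counts per library were 4761271 to 6277018, and miR-1a-3p, the main miRNA of muscle fibres, took 61.4% to 73.7% of them. Levels below are counts scaled by TMM normalization over the 9 libraries. TMM sets a common scale so that most miRNAs do not differ, and its factors were 0.826 to 1.265, with the highest in Mbnl1KO replicate 1. All 7 members of a list of muscle fibre miRNAs had counts. Of the lists of other cells, miR-126a-3p and miR-126a-5p of endothelium and miR-142a-3p of blood cells are listed at 0, so that no marker of endothelium was left and blood cells could be followed only through their other markers. In bulk tissue, fewer cells of a type and less of a miRNA per cell cannot be told apart.

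**Figure D1:**
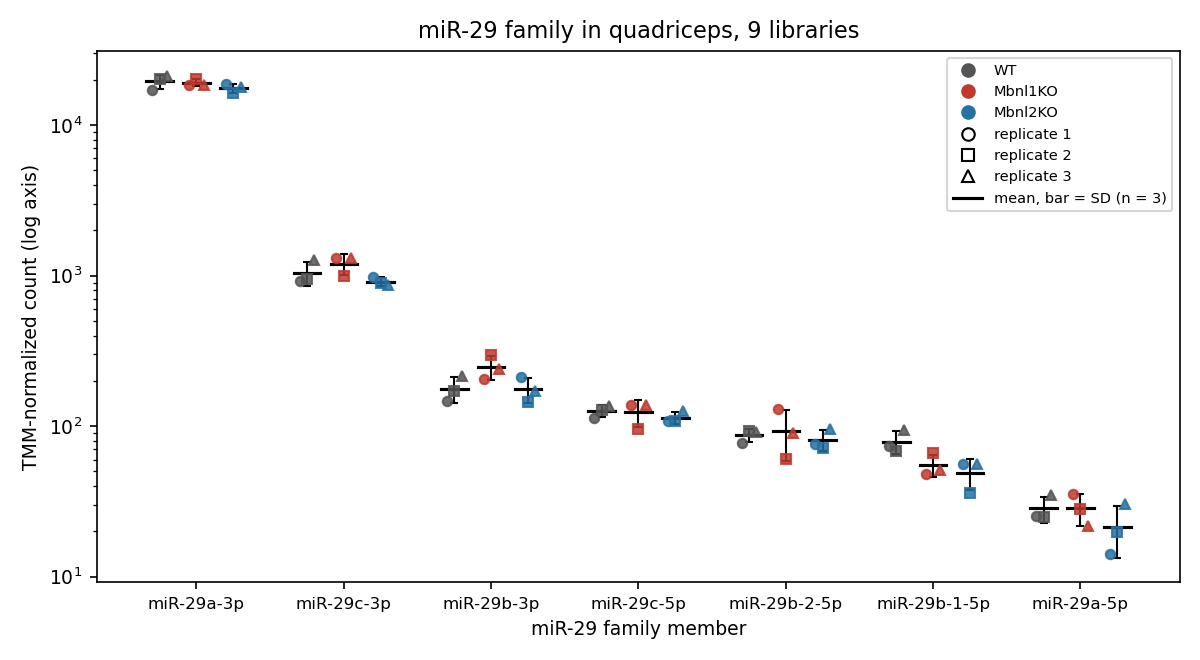
TMM-normalized counts (log axis) of the 7 members in each of 9 libraries, with grey for WT, red for Mbnl1KO and blue for Mbnl2KO, marker shapes for replicates, horizontal lines for means and bars for SD (n = 3). miR-29a-3p lies between 16221 and 21084 in all 9 libraries, far above the other members, and only miR-29b-1-5p has both knockout groups wholly below WT.

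miR-29a-3p was by far the most counted member in every library. It had 17234, 20251 and 21084 normalized counts in WT, 18551, 20386 and 18514 in Mbnl1KO, and 18706, 16221 and 17927 in Mbnl2KO. The groups overlapped in all 3 comparisons, and the order of their means was WT (19523 ± 2026, SD, n = 3), Mbnl1KO (19151 ± 1070) and Mbnl2KO (17618 ± 1271). WT and Mbnl1KO were closer than the spread of either group, while the means of Mbnl1KO and Mbnl2KO were farther apart than either SD although their libraries overlapped. With 14150 to 24131 raw counts per library it ranked between 17 and 22 among all miRNAs and made up 90.9% to 93.4% of the counts of the family. Counting error alone would give a coefficient of variation of 0.739% in WT, against 10.4% observed, so depth did not limit this member.

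miR-29c-3p, the second guide, had 919, 946 and 1261 normalized counts in WT, 1305, 987 and 1308 in Mbnl1KO, and 981, 888 and 860 in Mbnl2KO. Mbnl1KO replicates 1 and 3 were the highest libraries and Mbnl1KO replicate 2 fell among the WT libraries. The lowest Mbnl1KO library lay just above the highest Mbnl2KO library, and these groups overlapped when only their own 6 libraries were scaled together. miR-29c-3p made up 4.36% to 6.42% of the family.

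miR-29b-3p, the least counted guide, had 146, 172 and 214 normalized counts in WT, 207, 298 and 238 in Mbnl1KO, and 211, 144 and 171 in Mbnl2KO. Of the WT libraries only replicate 3 reached the range of Mbnl1KO, and Mbnl2KO lay in the same range as WT. Its mean was 177 ± 34.2 in WT, 248 ± 46.4 in Mbnl1KO and 175 ± 33.5 in Mbnl2KO (SD, n = 3). It made up 0.786% to 1.36% of the counts of the family, although both miR-29b hairpins encode it. Counts of different miRNAs also depend on how well each sequence is captured in a library, which was not tested, and since the members are 22 to 25 bases long they were compared without correction for length.

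The passenger strands were together 1.14% to 1.72% of the family. miR-29c-5p, the highest of them, had 95.2 to 139 normalized counts over the 9 libraries, with means of 126 ± 11.7 in WT, 124 ± 24.8 in Mbnl1KO and 114 ± 10.3 in Mbnl2KO. miR-29b-2-5p had 77.1, 92.7 and 92.0 in WT, 71.6 to 96.3 in Mbnl2KO, and 129, 60.7 and 90.1 in Mbnl1KO. Mbnl1KO thus held both the highest and the lowest library for miR-29b-2-5p, replicates 1 and 2.

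miR-29b-1-5p had 74.0, 68.6 and 94.5 normalized counts in WT, 48.4, 65.9 and 51.1 in Mbnl1KO, and 56.0, 35.8 and 55.7 in Mbnl2KO. Every library of either knockout was below every WT library, by as little as 68.6 against 65.9 for Mbnl1KO. The means were 79.0 ± 13.7 in WT, 55.2 ± 9.40 in Mbnl1KO and 49.2 ± 11.6 in Mbnl2KO (SD, n = 3). Raw counts of miR-29b-1-5p were 38 to 76 per library, for which counting error alone gives a coefficient of variation of 11.7% in WT, where 17.3% was observed.

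miR-29a-5p, the partner of the most counted guide, was the least counted member. It had 14 to 46 raw counts per library and 25.4, 25.1 and 34.8 normalized counts in WT, 35.4, 28.2 and 21.7 in Mbnl1KO, and 14.3, 19.8 and 30.4 in Mbnl2KO. All groups overlapped. In WT its coefficient of variation of 19.5% equalled that of counting error, so that moderate differences were not detectable at this depth.

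None of the 7 members was differentially expressed in Mbnl1KO compared with WT. All 7 passed the filter of a mean normalized count above 10, and 0 of 7 had an adjusted p under 0.05 by edgeR, where 33.1% of all 317 tested miRNAs did. DESeq2 also called 0 of 7, with 0.0837 as the smallest adjusted p. At an unadjusted edgeR p under 0.05 there were 2 of 7, miR-29b-3p and miR-29b-1-5p, against 42.3% of all tested miRNAs. These moved in opposite directions. The median log2 fold change was -0.05 for the members and -0.01 for all tested miRNAs, and the median absolute value was 0.09 for the members and 0.42 for all.

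Among the guides, miR-29b-3p had a log2 fold change of 0.42 (SE 0.19, 95% interval 0.04 to 0.80, adjusted p = 0.0760 by edgeR) in Mbnl1KO. For miR-29a-3p the difference was -0.09 with an interval of -0.38 to 0.19, and for miR-29c-3p it was 0.14 with an interval of -0.17 to 0.45. The call for miR-29b-3p depended on single libraries and on the scale: the adjusted p was 0.0453 without WT replicate 3, 0.0328 without Mbnl1KO replicate 1, 0.304 without Mbnl1KO replicate 2 and 0.0107 (log2 fold change 0.70) with library totals in place of TMM. Library totals moved the median of all tested miRNAs to 0.30, so that 0.70 stands against that shift, and 91 of 101 calls were then higher in Mbnl1KO, against 60 of 105 with TMM.

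Among the passengers, miR-29b-1-5p had a log2 fold change of -0.59 (SE 0.27, 95% interval -1.13 to -0.05, adjusted p = 0.0853 by edgeR) in Mbnl1KO. It was the only member whose groups did not overlap, which held for 43.8% of all tested miRNAs and, with the knockout lower, for 21.8%. Without Mbnl1KO replicate 2 its difference was -0.72 with an adjusted p of 0.0482, and with the other libraries left out in turn it was -0.70 to -0.47 and not called. With library totals it was -0.29 with an adjusted p of 0.482, and as a share of all counts Mbnl1KO replicate 2 lay above WT replicates 1 and 2, so that the separation of the groups depended on the scale. For the other 5p arms the values were -0.09 for miR-29c-5p, -0.05 for miR-29a-5p and 0.04 for miR-29b-2-5p, with intervals on both sides of 0.

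In Mbnl2KO compared with WT, all 7 members had log2 fold changes below 0, as had 47.4% of all tested miRNAs, and none passed the test. By edgeR 0 of 7 were called, where 5.80% of 293 tested miRNAs were. DESeq2 called 0 of 7, and at an unadjusted edgeR p under 0.05 there was 1 of 7, miR-29b-1-5p, against 18.1% of all. The median was -0.15 for the members and 0.02 for all tested miRNAs.

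miR-29b-1-5p had the largest difference of the family, -0.69 (SE 0.26, 95% interval -1.22 to -0.16, adjusted p = 0.126 by edgeR), and its groups did not overlap, which held for 23.2% of all tested miRNAs and, with the knockout lower, for 10.6%. The guides differed by -0.15 (miR-29a-3p, interval -0.40 to 0.10), -0.19 (miR-29c-3p, interval -0.50 to 0.11) and -0.01 (miR-29b-3p, interval -0.40 to 0.38). The remaining passengers had -0.42 for miR-29a-5p, -0.15 for miR-29c-5p and -0.11 for miR-29b-2-5p. The signs of miR-29b-3p and miR-29b-2-5p turned when single libraries were left out. Both knockouts were compared with the same 3 WT libraries, so the low miR-29b-1-5p in the pair of comparisons is not independent.

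In the direct comparison of Mbnl1KO with Mbnl2KO, all 7 members had log2 fold changes above 0, as had 52.8% of all tested miRNAs, and again 0 of 7 were called by edgeR, where 26.9% of 309 tested miRNAs were. DESeq2 called 0 of 7, and 2 of 7 had an unadjusted edgeR p under 0.05, the guides miR-29c-3p and miR-29b-3p, against 39.2% of all. miR-29c-3p differed by 0.35 (SE 0.15, 95% interval 0.04 to 0.66, adjusted p = 0.0857) and miR-29b-3p by 0.45 (SE 0.20, 95% interval 0.03 to 0.88, adjusted p = 0.104). miR-29a-3p differed by 0.07, with an interval of -0.16 to 0.31. On the scale of these 6 libraries all 7 members overlapped between the groups, where 42.7% of all tested miRNAs did not. The median of the members was 0.16, against 0.07 for all tested miRNAs, and the signs of miR-29a-3p, miR-29b-1-5p and miR-29b-2-5p turned when single libraries were left out. For miR-29c-3p the adjusted p was 0.0317 without Mbnl1KO replicate 2, the low library named above. For miR-29b-3p the difference was 0.25 (adjusted p = 0.368) without Mbnl1KO replicate 2, and 0.33 to 0.58 and not called without each of the other libraries. With library totals, which moved the median of all tested miRNAs to 0.36, miR-29c-3p (0.65, adjusted p = 0.0250) and miR-29b-3p (0.73, adjusted p = 0.0328) passed the threshold.

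**Figure D2:**
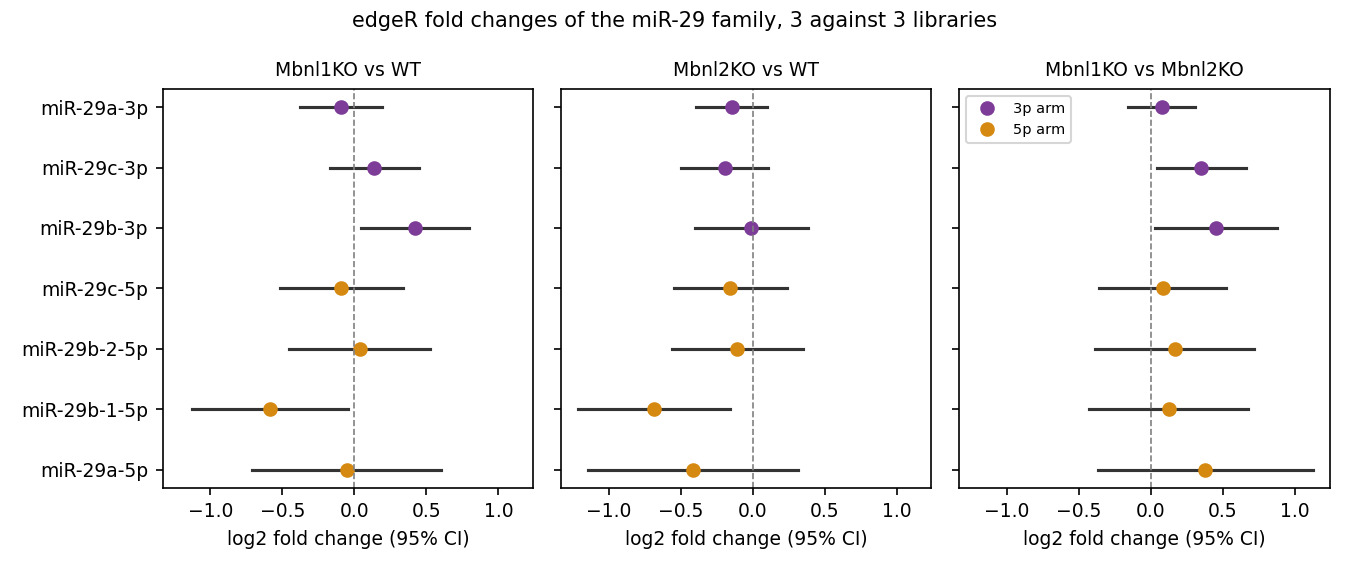
edgeR log2 fold changes (horizontal axis) of the 7 members in the 3 comparisons, with 95% confidence intervals as bars, purple for 3p and orange for 5p arms. All points lie between -0.69 and 0.45, and the few intervals that miss 0 belong to miR-29b-1-5p, miR-29b-3p and miR-29c-3p.

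The sum of the 7 members was 21063 ± 2229 normalized counts in WT, 20899 ± 886 in Mbnl1KO and 18969 ± 1357 in Mbnl2KO (SD, n = 3). It is nearly all miR-29a-3p. The difference of mean log2 sums was -0.01 for Mbnl1KO against WT, -0.15 for Mbnl2KO against WT and 0.14 for Mbnl1KO against Mbnl2KO. The libraries of Mbnl1KO (20362 to 21921) all lay above those of Mbnl2KO (17488 to 20152) on the scale of all 9 libraries. Of all tested miRNAs, 42.7% were separated in one direction or the other. That share was counted on the scale of those 6 libraries, so the sum and the share stand on different scales. On either scale miR-29a-3p taken by itself overlapped between these groups. Both groups overlapped with WT (18589 to 22916). As a share of all counts, the family took 0.374% to 0.450% in Mbnl1KO, 0.298% to 0.387% in WT and 0.278% to 0.332% in Mbnl2KO. On this scale of library totals the differences were 0.22 for Mbnl1KO against WT and 0.38 for Mbnl1KO against Mbnl2KO, so that the direction against WT depended on the scale. It also turned on single libraries, since with TMM the difference ran from -0.09 to 0.06 when 1 library was left out. The share of miR-1a-3p was lowest in Mbnl1KO replicate 1, in which the share of the family was highest. With totals that leave out miR-1a-3p, the sum in Mbnl1KO differed by -0.01 from WT and by 0.16 from Mbnl2KO.

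**Figure D3:**
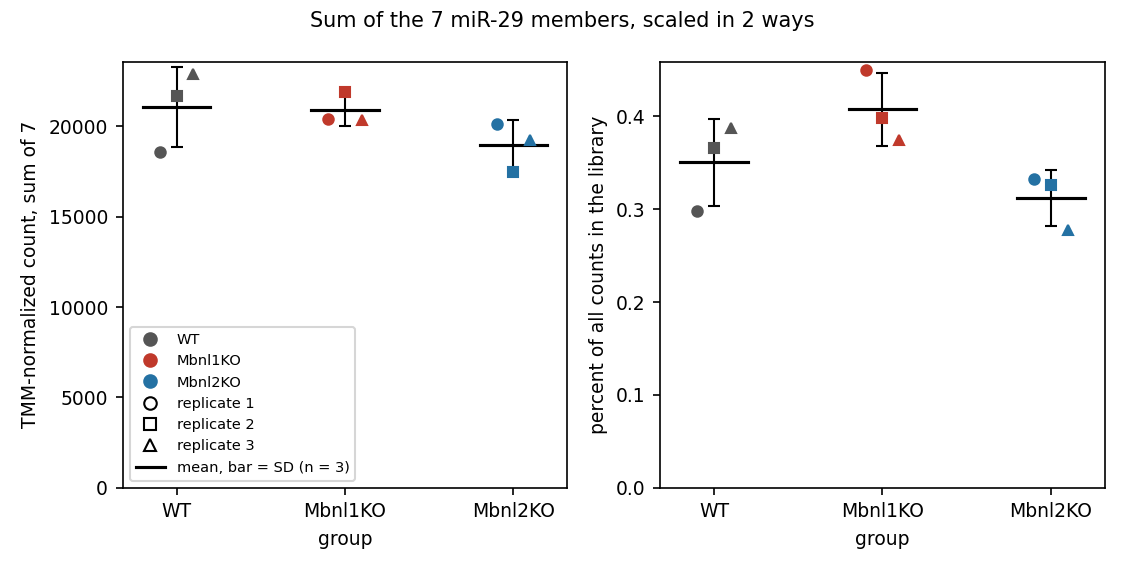
Sum of the 7 members in each library as TMM-normalized counts (left) and as percent of all counts of the library (right), with lines for means and bars for SD (n = 3). On the left the Mbnl1KO libraries lie within the range of WT, and on the right 2 of them lie above it.

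Ratios between arms in a single library do not depend on how libraries are scaled. For the 4 pairs of arms in the family, the 5p count was set against the 3p count of the same library, and the log2 ratio was compared with limma over all pairs of arms in the table with enough counts.

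The ratio of miR-29b-1-5p to miR-29b-3p was lower in Mbnl1KO than in WT. In WT the 5p arm had 50.7%, 39.9% and 44.2% of the counts of the 3p arm (73 against 144, 71 against 178 and 76 against 172 raw counts). In Mbnl1KO it had 23.4%, 22.1% and 21.5% (63 against 269, 63 against 285 and 59 against 275). In Mbnl2KO it had 26.6%, 24.8% and 32.6% (55 against 207, 38 against 153 and 44 against 135). The 3 groups did not overlap in any comparison, with WT highest and Mbnl1KO lowest. Groups did not overlap for 25.8% of all tested pairs of arms in Mbnl1KO against WT (10.8% with the knockout lower), for 16.9% in Mbnl2KO against WT, all of them lower, and for 33.0% in Mbnl1KO against Mbnl2KO (11.0% lower in Mbnl1KO). The means were 44.9% ± 5.44 in WT, 22.3% ± 1.00 in Mbnl1KO and 28.0% ± 4.07 in Mbnl2KO (SD, n = 3).

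In Mbnl1KO against WT the log2 ratio differed by -0.999 (SE 0.28, 95% interval -1.56 to -0.44, adjusted p = 0.0128 by limma). This was 1 of 7 pairs called among 93 tested (7.53%), and 1 of 2 called pairs that were lower (2.15%), the other being miR-22-5p to miR-22-3p. It was the seventh pair by p and the ninth by size. In raw counts the Mbnl1KO libraries had more of the 3p arm (269 to 285, against 144 to 178) and fewer of the 5p arm (59 to 63, against 71 to 76) than WT. The call was lost without WT replicate 1 (-0.91, adjusted p = 0.0901) and held without each of the other 5 libraries. Against Mbnl2KO the difference was -0.32 (95% interval -0.88 to 0.24, adjusted p = 0.502), although the groups did not overlap. In that comparison 13.2% of 91 pairs were called and 29.7% had an unadjusted p under 0.05.

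In Mbnl2KO against WT the same ratio differed by -0.68 (SE 0.27, 95% interval -1.21 to -0.14, adjusted p = 0.153 by limma), where 0 of 83 pairs were called and 14.5% had an unadjusted p under 0.05. The unadjusted p of this pair was 0.0129. Exact permutation tests of the ratio gave p = 0.10 in each of the 3 comparisons, the smallest value that 3 against 3 libraries can give.

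The denominator of this ratio is made by both miR-29b hairpins, and the counts do not show which of them a 3p read came from. The partner from chromosome 1, miR-29b-2-5p, had 43.0% to 53.9% of the miR-29b-3p count in WT, 36.2% to 56.3% in Mbnl2KO and 62.5%, 20.4% and 37.8% in Mbnl1KO. Its difference between Mbnl1KO and WT was -0.45 (95% interval -1.04 to 0.14, adjusted p = 0.400 by limma), and Mbnl1KO replicate 2 was low and replicate 1 high. The difference was -0.84 (adjusted p = 0.0588) without Mbnl1KO replicate 1 and -0.0327 (adjusted p = 0.969) without Mbnl1KO replicate 2. With both 5p arms added up, a choice made after seeing the data, they had 103%, 93.8% and 87.2% of the miR-29b-3p count in WT and 85.9%, 42.5% and 59.3% in Mbnl1KO, a difference of -0.66 (adjusted p = 0.0244). In Mbnl2KO the sum had 62.8%, 74.5% and 88.9%, a difference of -0.34 from WT (adjusted p = 0.409).

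**Figure D4:**
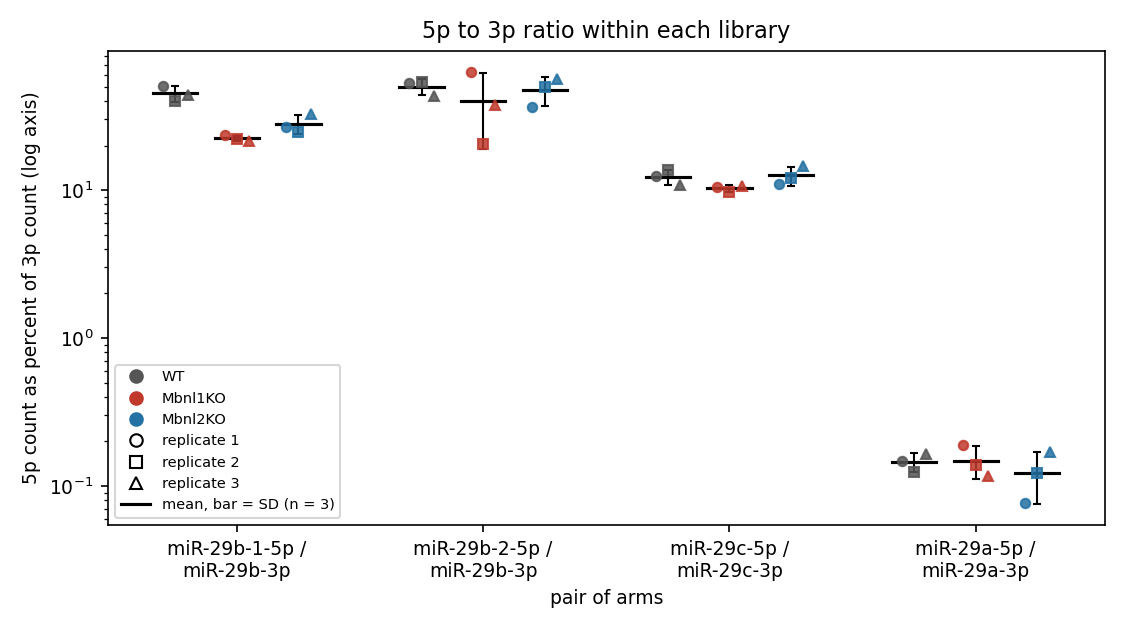
Count of the 5p arm as percent of that of the 3p arm (log axis) within each library for the 4 pairs of arms, with lines for means and bars for SD (n = 3). For miR-29b-1-5p the 3 WT libraries lie at 39.9% to 50.7% and the 3 Mbnl1KO libraries at 21.5% to 23.4%, while the pairs of miR-29b-2 and miR-29a overlap between groups.

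The pairs of miR-29a and miR-29c were called in none of the comparisons. miR-29c-5p had 12.3% ± 1.36 of the count of miR-29c-3p in WT, 10.3% ± 0.539 in Mbnl1KO and 12.6% ± 1.83 in Mbnl2KO (SD, n = 3). Mbnl1KO (9.64% to 10.6%) lay below both other groups, as did 10.8% and 11.0% of all tested pairs in those comparisons, and its difference from WT was -0.25 (95% interval -0.67 to 0.17, adjusted p = 0.559 by limma). miR-29a-5p had 0.145% ± 0.0206 of the count of miR-29a-3p in WT, 0.149% ± 0.0378 in Mbnl1KO and 0.123% ± 0.0467 in Mbnl2KO. This pair differed by 0.01 (95% interval -0.68 to 0.70) between Mbnl1KO and WT, which is the widest interval of the 4 pairs, and by -0.30 between Mbnl2KO and WT. In WT the passenger thus had 0.145% of the count of its guide for miR-29a and 12.3% for miR-29c. For miR-29b-2 it had 49.9% of the count of miR-29b-3p, which both miR-29b hairpins make. The miR-29b 5p arms added up had a mean of 94.8% of the count of miR-29b-3p in WT.

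**Figure D5:**
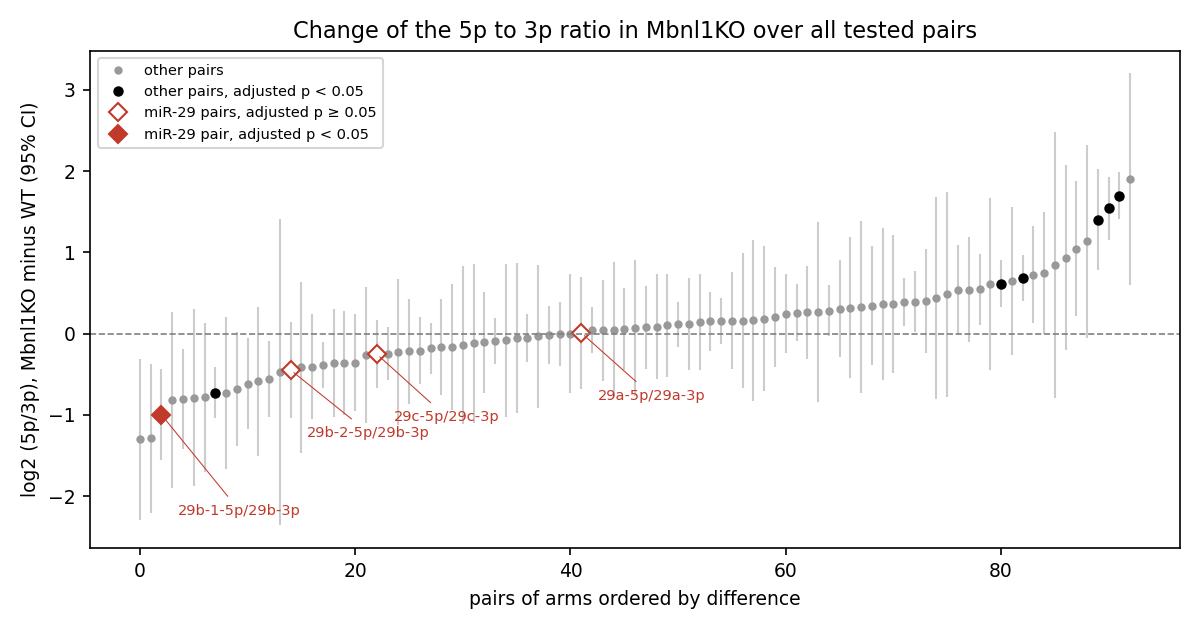
Difference in the log2 ratio of 5p to 3p counts between Mbnl1KO and WT for all 93 tested pairs of arms, in ascending order, with 95% confidence intervals as bars, black for other called pairs and red diamonds for miR-29. The filled diamond (miR-29b-1-5p to miR-29b-3p, -0.999) lies near the lower end, and the open diamonds of the other miR-29 pairs lie between -0.45 and 0.01.

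Members were also set against each other within libraries, over 3 ratios between guides and 1 between passengers in 3 comparisons. miR-29b-3p had 0.848%, 0.849% and 1.01% of the count of miR-29a-3p in WT and 1.11%, 1.46% and 1.29% in Mbnl1KO. These groups did not overlap, with a log2 difference of 0.51 (exact permutation test, 2-sided, p = 0.10, the smallest possible, and 0.60 after adjustment over 12 tests). In Mbnl2KO the share was 0.889% to 1.13%, a difference of 0.13 from WT. miR-29c-3p had 5.33% ± 0.654 of the count of miR-29a-3p in WT, 6.31% ± 1.27 in Mbnl1KO and 5.17% ± 0.345 in Mbnl2KO, with all groups overlapping. miR-29b-3p had 15.9% to 18.2% of the count of miR-29c-3p in WT, 15.8%, 30.2% and 18.2% in Mbnl1KO and 16.2% to 21.5% in Mbnl2KO, so that Mbnl1KO replicate 2 stood above the other libraries. The groups overlapped, with a log2 difference of 0.28 between Mbnl1KO and WT, which was -0.000615 without Mbnl1KO replicate 2. The ratio of miR-29b-1-5p to miR-29b-2-5p, which are made on different chromosomes, was 74.0% to 103% in WT and 50.0% to 73.3% in Mbnl2KO, a difference of -0.59 (exact permutation p = 0.10, adjusted 0.60). In Mbnl1KO this ratio was 37.5%, 109% and 56.7%, and it overlapped with both other groups.

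The 5p arms also served to follow the clusters apart, since they are specific to 1 hairpin each. The chromosome 6 cluster (miR-29a-5p and miR-29b-1-5p) summed to 107 ± 19.1 normalized counts in WT, 83.6 ± 10.7 in Mbnl1KO and 70.7 ± 15.3 in Mbnl2KO. All Mbnl2KO libraries (55.6 to 86.2) were below all WT libraries (93.7 to 129), and Mbnl1KO (72.8 to 94.1) overlapped with both. Of single miRNAs, 10.6% were likewise below WT in Mbnl2KO without overlap, counted on the scale of those 6 libraries. The chromosome 1 cluster (miR-29c-5p and miR-29b-2-5p) summed to 214 ± 20.1 in WT, 217 ± 56.4 in Mbnl1KO and 195 ± 23.3 in Mbnl2KO, with all groups overlapping. The difference of mean log2 sums between Mbnl1KO and WT was -0.36 for chromosome 6 and -0.01 for chromosome 1. Between Mbnl2KO and WT it was -0.61 and -0.13. In Mbnl1KO the lower chromosome 6 sum came from miR-29b-1-5p, as miR-29a-5p averaged 28.4 in both WT and Mbnl1KO. For miR-29a-3p, made from that cluster alone, edgeR gave -0.09 in Mbnl1KO against WT. As a share of all counts, the chromosome 6 sum was 0.00134% to 0.00185% in Mbnl1KO and 0.00158% to 0.00218% in WT. These sums were not tested.

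Other miRNAs linked to fibrosis were taken from lists of miRNAs described as promoting or opposing it. Counts of called miRNAs in these lists stand beside the share of all tested miRNAs that edgeR called, which was 33.1% in Mbnl1KO against WT (18.9% higher and 14.2% lower), 5.80% in Mbnl2KO against WT (3.41% and 2.39%) and 26.9% in Mbnl1KO against Mbnl2KO (15.2% and 11.7%). Of 10 promoting miRNAs 8 were tested in each comparison. In Mbnl1KO against WT 2 of 8 were called, beside 33.1% of all. Of these 1 was higher, miR-155-5p (log2 fold change 0.86, adjusted p = 1.0e-05 by edgeR), known from activated immune cells, and 1 lower, miR-199a-3p (-0.43, adjusted p = 0.0139), made in fibroblasts and vessel wall. In Mbnl2KO against WT 0 of 8 were called by edgeR and 0 by DESeq2, with 2 at an unadjusted edgeR p under 0.05, as were 18.1% of all. In the direct comparison miR-155-5p (1.31) and miR-34a-5p (0.60) were higher and miR-199a-3p (-0.45) and miR-199b-5p (-0.65) lower in Mbnl1KO. The median log2 fold changes of the list, -0.09, -0.09 and -0.08 in the order of comparisons given, stand beside -0.01, 0.02 and 0.07 for all tested miRNAs.

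Of 10 other miRNAs described as opposing fibrosis 8 were tested, and miR-24-3p is listed at 0. In Mbnl1KO against WT, where 33.1% of all miRNAs were called and 14.2% were lower, 2 of 8 were lower, miR-101b-3p (-0.48, adjusted p = 0.00625 by edgeR) and miR-101a-3p (-0.42, adjusted p = 0.0224), and none was higher. In Mbnl2KO against WT miR-101b-3p alone was lower (-0.63, adjusted p = 0.00454). In the direct comparison miR-30c-5p (-0.42) and miR-26a-5p (-0.40) were lower in Mbnl1KO. The medians of this list were -0.31, -0.10 and -0.18 in the same order of comparisons. With library totals in place of TMM, miR-199a-3p (-0.12), miR-101a-3p (-0.13) and miR-101b-3p (-0.17) kept their sign in Mbnl1KO against WT but not their calls, while miR-155-5p (1.15) kept its call. In the direct comparison miR-199a-3p, miR-199b-5p, miR-30c-5p and miR-26a-5p lost their calls in the same way. Against WT, the call in Mbnl1KO held in 15 of 15 alternatives for miR-155-5p, in 12 of 15 for miR-101b-3p, in 10 of 15 for miR-199a-3p and in 7 of 15 for miR-101a-3p, and in Mbnl2KO in 15 of 15 for miR-101b-3p. The summed levels of each list overlapped between Mbnl1KO and WT, at 63926 to 74471 against 59232 to 74450 for the promoting and 583579 to 730406 against 648583 to 683045 for the opposing list.

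Markers of other cells moved in Mbnl1KO beside these values. Against WT, where 33.1% of all tested miRNAs were called, of 6 tested immune and blood cell miRNAs 1 was higher (miR-155-5p) and 3 lower, miR-223-3p of granulocytes (-0.87), miR-142a-5p (-0.84) and miR-146a-5p (-0.49), while the summed level of the list overlapped (2781 to 3424 against 2700 to 3161 in WT). With library totals miR-142a-5p and miR-146a-5p lost their calls, which held in 5 of 14 and 10 of 15 alternatives. In Mbnl2KO against WT 0 of these 6 were called by edgeR or DESeq2, with 2 at an unadjusted edgeR p under 0.05, beside 18.1% of all. The direct comparison called the same 4 in the same directions as Mbnl1KO against WT, with which it shares the Mbnl1KO libraries. Of these 4, miR-146a-5p lost its call against Mbnl2KO with library totals.

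Of 5 tested miRNAs of fibroblasts and vessel wall miR-199a-3p alone was lower in Mbnl1KO, against WT (14.2% of all were lower) and against Mbnl2KO (11.7%), with a summed level of 34042 to 49032 against 35862 to 37978 in WT. In Mbnl2KO, where 5.80% of all were called, 1 of these 5, miR-143-3p of smooth muscle, was higher (0.48, adjusted p = 0.0169 by edgeR). With library totals edgeR gave an adjusted p of 0.0590, and the call held in 9 of 15 alternatives. The summed level of that list in Mbnl2KO, 44109 to 49826, was above WT, beside 23.2% of single miRNAs whose groups did not overlap. It is mostly miR-143-3p (mean 28981 in Mbnl2KO and 20907 in WT, scaled over those 6 libraries). The other tested members had log2 fold changes of -0.11 to 0.16. Among 6 tested muscle fibre miRNAs 3 were called in Mbnl1KO against WT, beside 33.1% of all. miR-206-3p (1.93) and miR-133b-3p (0.71) were higher and miR-378a-3p (-1.30) lower, with the call for miR-133b-3p holding in 10 of 14 alternatives, all 3 also differed in that direction from Mbnl2KO, and miR-206-3p (0.89) was higher in Mbnl2KO than in WT. The summed level of the muscle fibre list, most of which is miR-1a-3p, was 3274010 to 4190400 in Mbnl1KO, below the 4594710 to 4880870 of WT, and 4013670 to 5526670 in Mbnl2KO. Of single miRNAs, 21.8% were likewise below WT in Mbnl1KO without overlap, counted on the scale of those 6 libraries. The part of cell composition in the ratios and levels of the miR-29 family was not tested.

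The miRNAs whose levels over the 9 libraries were most like those of each guide were named by the root-mean-square difference of centred log2 normalized counts, among 310 miRNAs. For miR-29a-3p these were miR-133a-5p (0.08), miR-21a-5p (0.11) and miR-26b-5p (0.13). For miR-29b-3p they were miR-15a-5p (0.10), miR-22-3p (0.17) and miR-185-5p (0.19), and for miR-29c-3p miR-93-5p (0.11), miR-133a-3p (0.12) and miR-145a-5p (0.16). Within the family, miR-29c-5p was the eighth nearest to miR-29c-3p (0.18), while miR-29b-1-5p was at 124 and miR-29b-2-5p at 144 in the order around miR-29b-3p. A small value is easier to reach for miRNAs that are counted deeply and vary little, so this is a description only.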

How the data were processed

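The authors deposited 1 table of raw counts per mature miRNA and library, without normalization. By the methods of the study, adapters were clipped, reads were aligned to miRBase hairpins in sense without mismatches, and those within a mature miRNA or a small margin around it were added up. Whether this made the deposited table is not stated. The study lists miR-24-3p among the miRNAs deregulated in both knockouts, whereas the deposited table holds no count of it. For this miRNA the deposited counts thus differ from those behind the study's results. Whether miR-29b-3p was affected in the same way was not tested. A read of miR-29b-3p matches both of its hairpins, and how it was shared between them is not given in the sources used here.

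Libraries were grouped by their labels. edgeR 4.0.16 (quasi-likelihood, robust, TMM) was run for each pair of groups on their 6 libraries, where the mean normalized count exceeded 10, and p-values were adjusted by Benjamini-Hochberg over all miRNAs tested (threshold 0.05). Log2 ratios of 5p to 3p counts (pseudocount 0.5) were fitted with limma 3.58.1 (trend, robust) over all pairs of arms above 10. Ratios between members were compared with 2-sided exact permutation tests. Alternatives were DESeq2 1.42.0, other scalings, filters and pseudocounts, a replicate block and each library left out. Work was done in R 4.3.3 and Python 3.11.15 (SciPy 1.17.1, pandas 2.3.3), with NumPy 2.4.6, and plots used matplotlib 3.10.9. All members were named, the list members with an adjusted p under 0.05, and the 3 nearest miRNAs of each guide. The members and lists were chosen with earlier results of these data known.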

Additional observations from a re-analysis of the deposited data

How the results depend on the processing

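Over 306 alternative values of the 21 member fold changes, 282 kept their direction and side of the threshold, 7 passed it (miR-29b-3p, miR-29b-1-5p and miR-29c-3p, above) and 17 changed sign, none of these with an adjusted p under 0.05. The causes were not tested. With library totals, Mbnl1KO against WT gave 0.20 for miR-29a-3p, 0.26 for miR-29a-5p and 0.22 for miR-29c-5p, and totals without miR-1a-3p gave 0.0182 for miR-29a-5p. Leaving out single libraries gave, for Mbnl1KO against WT, -0.25 to 0.11 for miR-29a-5p, -0.26 to 0.28 for miR-29b-2-5p and -0.17 to 0.0769 for miR-29c-5p. For Mbnl2KO against WT it gave -0.21 to 0.14 for miR-29b-3p and -0.25 to 0.00308 for miR-29b-2-5p, and for Mbnl1KO against Mbnl2KO -0.0200 to 0.11 for miR-29a-3p, -0.0665 to 0.22 for miR-29b-1-5p and -0.14 to 0.35 for miR-29b-2-5p.

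Of the ratios of 5p to 3p, 138 of 147 values were unchanged in direction and call. That of miR-29a in Mbnl1KO was -0.0199 with a pseudocount of 5 and -0.18 to 0.16 with single libraries left out. Leaving out libraries gave -0.23 to 0.0906 for miR-29b-2 and -0.0815 to 0.12 for miR-29c in Mbnl2KO against WT, and -0.75 to 0.0580 for miR-29b-2 in Mbnl1KO against Mbnl2KO. The lower ratio of miR-29b-1-5p in Mbnl1KO ranged from -1.08 to -0.91 with libraries left out, and its adjusted p from 0.00934 to 0.0901 over all alternatives. Of 12 ratios between members, 4 changed sign in some alternative.

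The replicate numbers did not pair the libraries, since deviations of same-numbered libraries correlated with r between -0.17 and 0.08 over 9 pairs. With the replicate number as a block, the lower ratio of miR-29b-1-5p to miR-29b-3p was no longer called (adjusted p = 0.0603 against 0.0128), with the difference of -0.999 fixed by the balanced design, and miR-29b-2-5p in Mbnl1KO against WT was at -0.0172. Calls over all miRNAs under the block were 92, 21 and 80, against 105, 17 and 83.

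Sums of the family moved with library totals to 0.22 and 0.38, as given above. Counts of calls over all miRNAs in Mbnl1KO against WT fell to 68 of 167 miRNAs above a mean of 100. In Mbnl2KO against WT they were 7 with library totals, 9 above a mean of 100, 11 with all 9 libraries in 1 fit, 6 at a threshold of 0.01, and 6 to 23 with libraries left out. In Mbnl1KO against Mbnl2KO they were 45 at 0.01. Calls of arm ratios in Mbnl1KO against WT were 12 with a pseudocount of 5 and 7 to 14 with libraries left out. They were 1 with all 9 libraries and 0 to 4 with libraries left out in Mbnl2KO against WT, and 6 to 12 in the direct comparison. The counts of the 5p arms, 14 to 179 per library, limit the precision of every ratio that uses them.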

Other observations

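MBNL proteins bind RNA at short words with GC between a pair of pyrimidines. These words were searched for in the 4 miR-29 hairpins as RefSeq gives them, on the sense strand only since the hairpin is RNA. The word UGCU is held by 41.1% of 1005 mouse hairpins in RefSeq and the word UGCC by 34.8%, while the word CGCU is held by 12.2% and the word CGCC by 9.6%. None of the 4 words occurred in any miR-29 hairpin, whereas 68.1% of all hairpins hold at least 1 of them, and so do 69.0% of the 342 hairpins of the same span of lengths, 71 to 88 bases. This describes these letters in these windows only.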
